A study of Mus musculus with 64 samples.

Results

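The 20 transposon insertions with the most sequencing reads in each of 41 mouse lymphomas are described here by their genes, their recurrence, their strand and their combinations within a tumour. They were taken from a table of insertion sites of PiggyBac (PB) and Sleeping Beauty (SB), 2 DNA transposons mobilised in mice to mutate genes at many places. Neither inserts evenly, since the study found preferences for local sequence and, mainly for PB, for genes and open chromatin. Reads were summed for each sample and position on the autosomes without chromosome 14, and the 20 positions with the most reads were kept, ties going to the lower chromosome and then the lower position. This gave 820 insertions out of 202111 kept in the tumours, 600 in 30 PB tumours and 220 in 11 SB tumours. The same rule gave 460 insertions in 23 tail samples, which served as normal tissue, and all 64 samples held 301451 insertions. The insertions were chosen by their read counts, so read counts below are descriptions and were not tested.

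PB tumours carried the genotype label IMPB and SB tumours the label IMSB, and 12 PB tails and 11 SB tails carried the same labels. All mice had a transposase knocked in at Rosa26, where it is active in all tissues (Rosa26PB or Rosa26SB), together with copies of an ITP transposon. The SB mice descended from parents that were all Blm m3/m3, 1 parent carrying Rosa26 SB/+ and the other ITP1-C or ITP2-M, so the SB tails share the Blm genotype of the SB tumours. The Blm genotype of the PB mice was not given in the sources used here. The background was a mix of C57BL/6, 129Sv and FVB, and ages are not given here. Tumours had been diagnosed as diffuse large B-cell lymphoma by histology. The labelled tissues of the PB tumours were mainly MES MASS (9), MES LN (6), SPLEEN (6) and LN (5), and those of the SB tumours mainly SPLEEN (3), MES LN (2) and MES MASS (2), with 1 SB tumour labelled THYMUS. DNA came from pieces of tissue, so reads mix lymphoma cells with other cells. Fewer cells with an insertion and poorer amplification of that insertion cannot be told apart from read counts. No expression was measured, and so no marker could check the labelled tissue.

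A transposon that lands in a gene can cut its transcript short or, depending on its cargo and direction, change how strongly the gene is expressed. ITP transposons were built to inactivate genes. In a lymphoma that grows from 1 mutated cell, every daughter cell inherits the insertions of that founder, which is why well covered insertions are usually read as early ones. Diffuse large B-cell lymphoma arises from mature B cells, whose survival depends on B-cell receptor signalling and NF-kB and is curbed by the death receptor Fas and by G-protein signalling in the germinal centre.

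PB inserts at TTAA and SB at TA. As deposited, 593 of the 600 PB insertions (98.8%) and 204 of the 220 SB insertions (92.7%) lay on their motif. The windows below are 30 bases of the mm10 genome (GRCm38, RefSeq), plus strand, 5′ to 3′, with the motif of the insertion in capitals. The first set gives examples of positions that were among the 20 most covered in more than 1 tumour.

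Fas, PB tumours 6, 12 and 16, chr19:34322604-34322633: caccttactgcttTTAAtattctttctttg
Fas, PB tumours 7 and 10, chr19:34321830-34321859: tgtgtaaatttttTTAAatgagatataatg
Fas, PB tumours 15 and 29, chr19:34321990-34322019: tctatttggaacaTTAAacacgatagaaat
Ebf1, PB tumours 3 and 23, chr11:44623975-44624004: ggaaatggttcatTTAAagaaaaataacag
Ebf1, SB tumours 2 and 3, chr11:44848261-44848290: cctcaccctatactTAgcatggcatcttgg
Larp1, SB tumours 2 and 3, chr11:58027251-58027280: gttgcttccccacaTAgatgctgtgatgaa
Stt3b, SB tumours 2 and 3, chr9:115281231-115281260: tttcacagtcaataTAgtactagccattaa

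The second set shows, for the system named, further well covered insertions of genes described below, with the SB site in Fas lying 9 bases from a PB site of the first set.

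Fas, SB tumour 4, chr19:34321839-34321868: ttttttaaatgagaTAtaatggaaactatt
Gna13, PB tumour 27, chr11:109381517-109381546: tgagggctcatttTTAAgagactatataaa
Rel, PB tumour 24, chr11:23739220-23739249: tggttgcattgttTTAAtataatcaaaaat
Ebf1, PB tumour 21, chr11:44944648-44944677: gtgagtggacattTTAAagttctactttct
Nfkb2, SB tumour 5, chr19:46310096-46310125: gggaccgaggagtgTAtatgatcaataaac
Cbfb, SB tumour 3, chr8:105178210-105178239: tatatacaactttaTAttatgctttaaatt

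The third set is shown because En2 also held insertions among the most covered positions of all 11 SB tails.

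En2, SB tumour 5, chr5:28169837-28169866: ttattgggatccccTAgtttgtgataggcc
En2, SB tumour 8, chr5:28169847-28169876: cccctagtttgtgaTAggccttttagctac
En2, SB tumour 7, chr5:28169860-28169889: ataggccttttagcTAcatctgccaatcca

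Kept reads per sample ranged from 60907 to 5827200 in PB tumours and from 56877 to 163441 in SB tumours. Together they took up 35.8% ± 18.9 of the reads in PB tumours (SD, n = 30, range 14.2 to 95.6) and 32.0% ± 23.4 in SB tumours (SD, n = 11, range 10.6 to 82.4). In tails they held 5.22% ± 3.02 (SD, n = 12) for PB and 4.44% ± 1.23 (SD, n = 11) for SB, and no tail reached the lowest PB tumour. The median reads at ranks 20 and 21, just inside and just outside the rule, were 931 and 905 in PB tumours and 297 and 295 in SB tumours. PB tumour 13 was the most concentrated, with 95.6% of its reads in 20 positions (exact binomial 95% interval 95.5 to 95.7). Its reads fell from 23481 at rank 1 to 44 at rank 20. SB tumour 9 had 82.4% (82.0 to 82.7), falling from 15818 reads to 20, where 4 positions were tied. The last ranks of these tumours were therefore thinly covered. These intervals cover counting error only, since reads were amplified by PCR and carried no molecular identifiers.

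**Figure D1:**
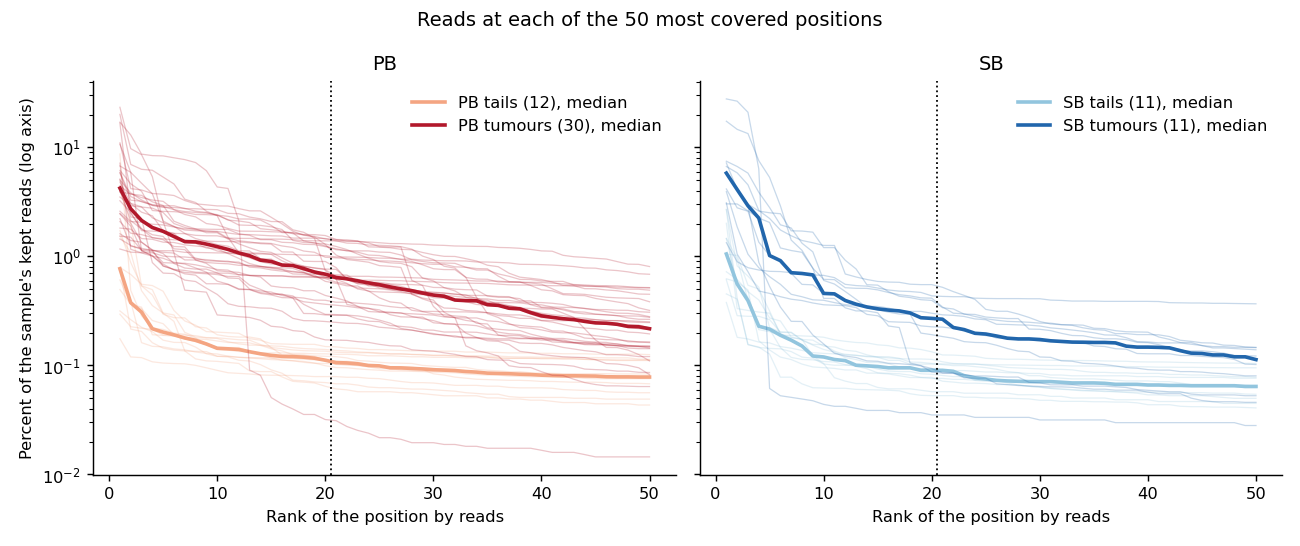
Percent of a sample's kept reads (log axis) against rank for its 50 most covered positions, PB left and SB right, with 1 thin line per sample, thick lines for group medians and a dotted line after rank 20. The share at rank 1 averaged 6.26% in PB tumours and 7.99% in SB tumours, and the median line of tails lies below that of tumours in both systems.

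Some samples shared positions. SB tumour 3 listed 12 of the 20 insertions of SB tumour 2, at a median of 0.0823 of their reads, and 4 positions were among the 20 of both. PB tail 9 listed 15 of the 20 of PB tumour 30, at a median of 0.000658 of their reads. In all, 103 of 600 PB insertions (17.2%) and 47 of 220 SB insertions (21.4%) were listed at the same position in another sample. Whether this came from the mice or from handling of the samples was not tested.

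Among the genes reported here, 359 held at least 1 of the PB insertions and 110 at least 1 of the SB insertions. Most were hit in 1 tumour, namely 319 of the 359 in PB and 101 of the 110 in SB. 40 genes were hit in at least 2 PB tumours, 10 in at least 3 and 4 in at least 4, these last being Fas, Gna13, Ebf1 and Rel. 9 genes were hit in at least 2 SB tumours, namely Ebf1, Elmo1, En2, Fas, Galnt13, Larp1, Malt1, Stt3b and Traf3. Without SB tumour 3 this became 6, since Elmo1, Larp1 and Stt3b were left with 1 tumour. 20 genes were hit in both systems, 5.57% of the PB genes and 18.2% of the SB genes. They were Ambra1, Atf6, Atp2b1, Crebbp, Ddx6, Ebf1, Elmo1, Fas, Hnrnpa2b1, Larp1, Lrrtm4, Malt1, Nfkb2, Plcb1, Prkg1, Slamf6, Tenm3, Traf3, Trip12 and Wac. Some are long, Prkg1 spanning 1200782 bases, and the overlap expected from gene length was not worked out.

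**Figure D2:**
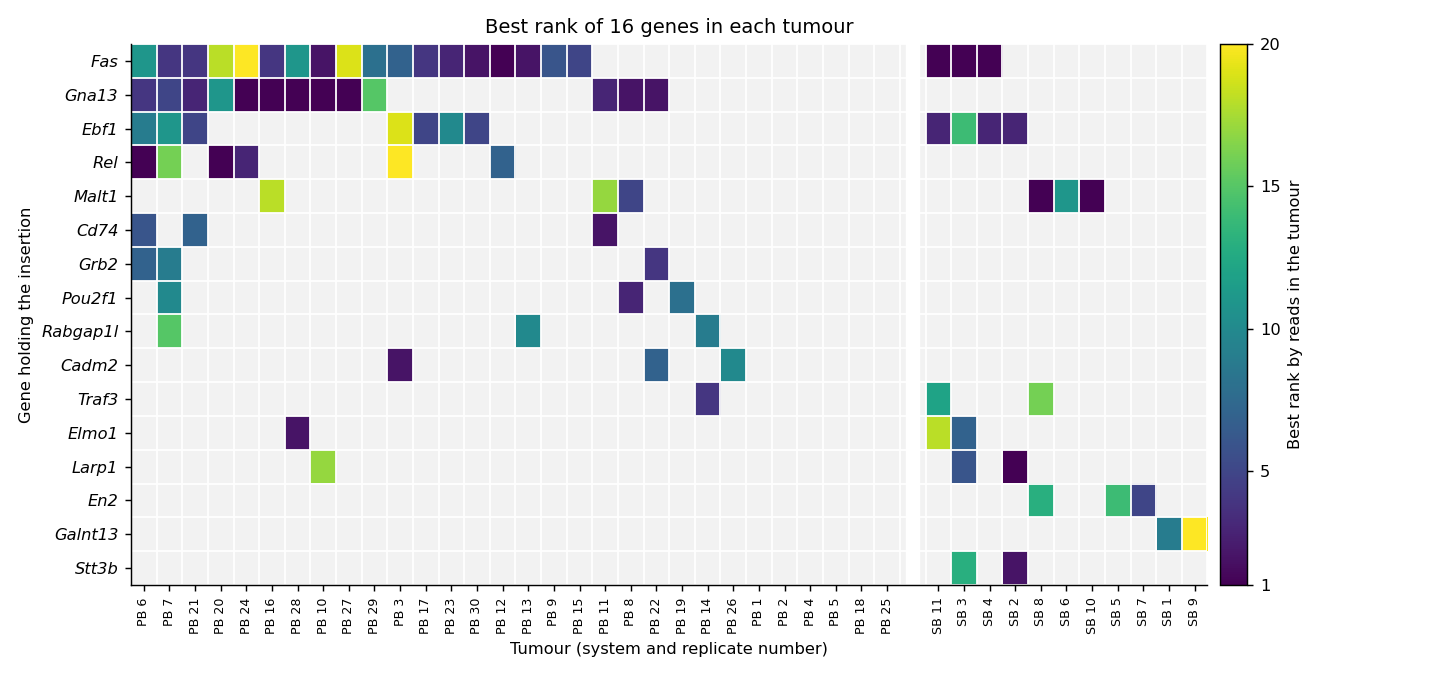
Best rank, from 1 to 20, of any insertion in 16 genes (rows) in each of 41 tumours (columns, PB then SB); empty cells have no insertion among the 20. The row of Fas is filled in 18 PB and 3 SB tumours, and that of Gna13 in 13 PB tumours and no SB tumour.

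Fas, the death receptor that triggers apoptosis of B cells when its ligand binds, was the gene hit in most tumours among those reported (chr19:34290647-34327775, plus strand). It held 19 insertions in 18 of 30 PB tumours and 3 in 3 of 11 SB tumours, and none in the 20 of any tail. In PB tumours the ranks ran from 1 to 20 with a median of 5, and the reads from 959 in PB tumour 12 to 94152 in PB tumour 3, which was by far the most deeply sequenced. The best covered by share was in PB tumour 13, with 17907 reads, or 12.99% (12.8 to 13.2). In SB tumours 3, 4 and 11 the insertion in Fas was the most covered of all, with 5140, 6784 and 3793 reads. Its share in SB tumour 4 was 6.68% (6.52 to 6.83).

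The insertions in Fas were alike in place and direction. 16 of the 19 in PB tumours and 3 of 3 in SB tumours lay in intron 8, the last intron of a gene of 9 exons, with the transposon on the strand of the gene. They lay between 30447 and 35595 bases from the start of the gene in PB and between 29995 and 32488 in SB. The last exon, which follows this intron, encodes the cytoplasmic death domain. The other 3 PB insertions were on the opposite strand, in intron 2 in PB tumour 12 and in intron 7 in PB tumours 13 and 17, these last 27 bases apart at positions 34319459 and 34319432. PB tumour 12 also held an insertion in intron 8 and was the only PB tumour with 2 insertions in Fas among its 20. Among the other, less covered insertions in Fas, 22 of 51 in PB tumours lay in intron 8, 21 of them on the strand of the gene, and 9 lay in intron 7 on the opposite strand. Of the 51, 17 lay within 3 bases of a most covered insertion of another tumour. Whether those 17 were separate insertions was not tested, so the less covered ones are no independent support.

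Gna13, the G-protein subunit that confines B cells to the germinal centre and restrains their growth, held 14 insertions in 13 of 30 PB tumours (chr11:109362794-109401369, plus strand). It had none among the 20 of SB tumours or of tails. It was the most covered in PB tumours 10, 16, 24, 27 and 28, with 9226, 6540, 10840, 23695 and 2578 reads, and 11 of the 14 lay within the first 5 ranks. The shares in PB tumours 27 and 10 were 11.0% (10.9 to 11.1) and 10.7% (10.5 to 10.9). In contrast to Fas, 8 were on the strand of the gene and 6 on the opposite strand, and all lay in introns 1 and 2, between 1323 and 26111 bases from the start. PB tumour 20 held 2 of them, on opposite strands, with 2661 and 2140 reads.

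Ebf1, a transcription factor that specifies and maintains B-cell identity, was hit in both systems (chr11:44618100-45008096, plus strand). It held 8 insertions in 7 PB tumours, at ranks 5 to 19, and 5 in 4 SB tumours, at ranks 3 to 14. Reads ran from 920 in PB tumour 17 to 81026 in PB tumour 3, and from 457 in SB tumour 3 to 6213 in SB tumour 2. 6 of 8 were on the strand of the gene in PB tumours and 2 of 5 in SB tumours. They were spread over introns 5 to 12, from 5889 bases to 357889 bases from the start. The insertions of SB tumours 2 and 3 were the same position, so without SB tumour 3 Ebf1 held 4 insertions in 3 SB tumours. Cbfb, the partner that stabilises RUNX proteins on DNA, held 3 insertions, all in SB tumour 3, at ranks 2, 5 and 15 with 2446, 854 and 456 reads and spanning 16775 bases.

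Rel, the c-Rel subunit of NF-kB, held 1 insertion in each of 6 PB tumours and none among the 20 of SB tumours (chr11:23736847-23770969, minus strand). The reads were 80948 in PB tumour 3, 6984 in PB tumour 24, 3906 in PB tumour 20, 3590 in PB tumour 6, 1739 in PB tumour 7 and 849 in PB tumour 12. It was the most covered insertion in PB tumours 6 and 20. All 6 were on the strand of the gene. 5 lay in the part of exon 10, the last exon, that follows the coding sequence, between 30273 and 33959 bases from the start, and 1 lay in intron 7.

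Other genes that act in NF-kB signalling were hit in few tumours each. Nfkb2, whose product p100 is trimmed to p52 in the non-canonical branch, was hit on the strand of the gene in intron 14 in PB tumour 19, with 1358 reads at rank 2. In SB tumour 5 it was hit in intron 16 with 6382 reads at rank 1, a share of 5.81% (5.67 to 5.95). Traf3, an adaptor that holds this branch in check, was hit only in intron 1, with 6220 and 5385 reads in PB tumour 14, 376 in SB tumour 8 and 360 in SB tumour 11. Tnfaip3, which encodes the NF-kB inhibitor A20, was hit on the opposite strand in PB tumours 22 and 5, with 3389 and 927 reads. Birc2, a ubiquitin ligase of the same pathway, was hit once, in PB tumour 7 with 1813 reads.

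Malt1, a protease that acts in signalling below the B-cell receptor, was hit in 3 PB and 3 SB tumours. The reads were 2210, 2209 and 1844 in PB tumours 8, 11 and 16, at ranks 5, 17 and 18. In SB tumours 8, 10 and 6 they were 28383, 7377 and 468, at ranks 1, 1 and 11, and the share in SB tumour 8 was 17.4% (17.2 to 17.5). All 6 were on the strand of the gene, 5 in intron 7 and 1 in intron 8, and lay between 18808 and 21308 bases from the start of a gene 47950 bases long. Of the less covered insertions in PB tumours, 31 of 36 were also on the strand of the gene and 20 of these were in intron 7.

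**Figure D3:**
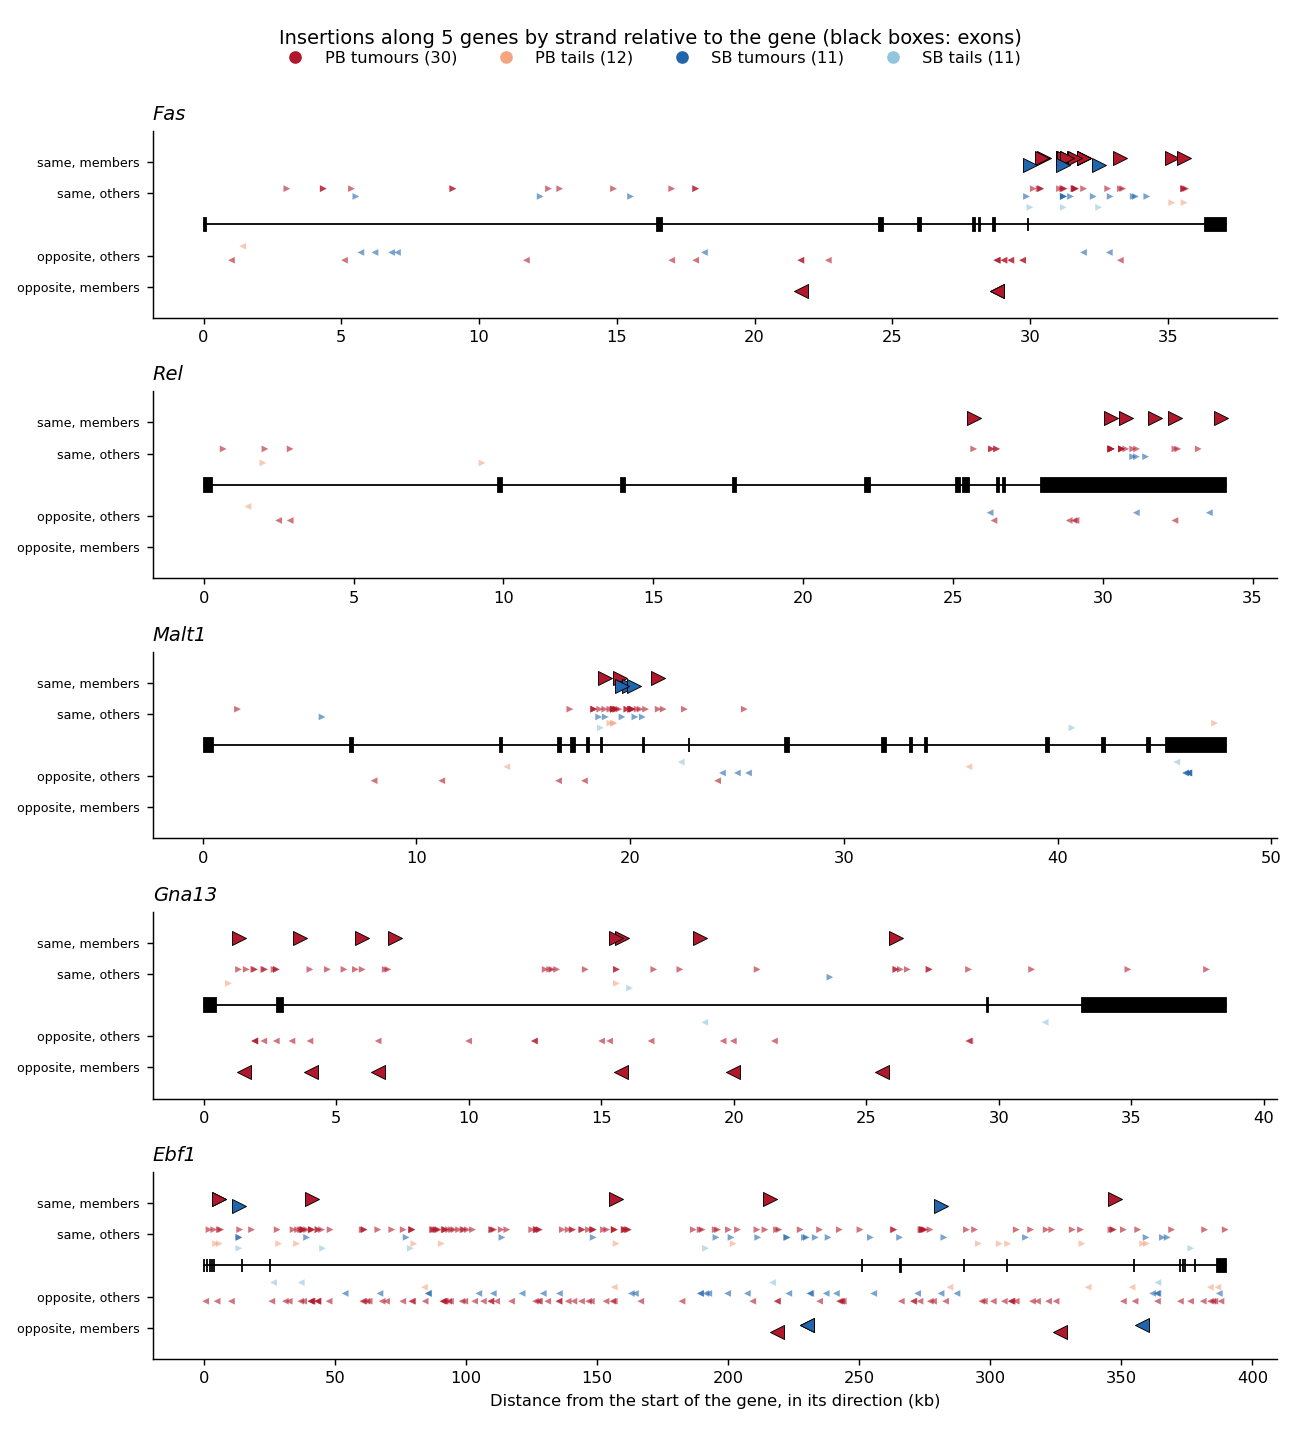
Insertions in Fas, Rel, Malt1, Gna13 and Ebf1 by distance from the start of the gene (x axis, kb), with exons as black boxes; marks above the gene are on its strand and marks below on the opposite strand, large for the 20 most covered insertions (members) and small for the others, coloured by group. Those of Fas gather in the last intron and those of Rel in the last exon, while those of Ebf1 spread over the gene.

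Further genes were hit in 3 PB tumours each and in no SB tumour, of which Cd74, Rabgap1l and Cadm2 were named after their values were seen. Cd74, the invariant chain of MHC class II, was hit on its strand in intron 1 with 3308, 2729 and 2051 reads in PB tumours 11, 21 and 6, at the same position in PB tumours 6 and 11. Grb2, an adaptor of receptor signalling, was hit with 5741, 1889 and 1803 reads in PB tumours 22, 6 and 7, once on its strand. Pou2f1, which encodes OCT1, a partner of the B-cell coactivator OCA-B, was hit on the opposite strand with 2725, 1793 and 785 reads in PB tumours 8, 7 and 19. Rabgap1l, a regulator of membrane traffic, was hit on the opposite strand with 5977, 2620 and 1750 reads in PB tumours 13, 14 and 7. Cadm2, a neuronal adhesion molecule, was hit on the opposite strand in intron 1 with 148322, 4234 and 462 reads in PB tumours 3, 22 and 26. Pou2af1, which encodes OCA-B itself, was hit on its strand in intron 1 in PB tumours 14 and 23, with 7037 and 3191 reads.

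En2, a homeobox gene of the developing brain, was hit by 4 insertions in SB tumours 7, 8 and 5. They had 562 reads in SB tumour 7, 517 at each of 2 positions in SB tumour 8, and 121 in SB tumour 5. In SB tails En2 held 26 of the 20 most covered insertions of the 11 samples, with at least 1 in every tail, all within 4151 to 4539 bases from the start. Tumours and tails thus shared this place, unlike Fas, which had none in the tails' lists.

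Lists of genes were described by their counts beside the share of the less covered insertions in the same genes. Death receptor and apoptosis genes held 3.17% of the 600 PB insertions, against 0.120% of the others. All 19 lay in Fas, 1 of 23 genes in that list. NF-kB pathway genes held 2% against 0.171%, with 12 insertions in 10 tumours and 5 of 29 genes, namely Rel, Traf3, Tnfaip3, Nfkb2 and Birc2. B-lineage transcription factors held 3.33% against 0.930%, with 20 insertions in 15 tumours and 10 of 34 genes. In PB tails this list held 3 insertions, 1.25% against 0.424%. PB tails held none of the first 2 lists among their 20. Single insertions in this list lay in Ikzf1 (PB tumour 24, 3886 reads), Ikzf3 (PB tumour 20, 3096 reads), Mef2c (PB tumour 22, 5584 reads), Foxo1 (PB tumour 14, 1512 reads), Tcf12, Etv6 and Zeb2. Genes of B-cell receptor signalling held 1.5% against 0.439%, and none in PB tails, in Malt1, Grb2, Ptprc and Syk.

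Chromatin regulators held 1% against 0.699%, which was 6 insertions in 5 of 43 genes. Among them were 2 in Chd2, a chromatin remodeller hit on its strand in intron 2 in PB tumours 19 and 29, and 1 in Crebbp, a histone acetyltransferase, with 8485 reads at rank 2 in PB tumour 15. Crebbp was also hit in SB tumour 10 with 945 reads. PI3K, mTOR and Ras genes held 3 insertions (Rasa1, Rasa2 and Spred1), 0.5% against 0.396%, and Notch and T-lineage genes 3 (Maml1 and Tox), 0.5% against 0.304%. Classic retroviral integration genes and repair genes held 1 each, in Jak1 and Atr, at shares of 0.167% against 0.167% and 0.157% for the others. In SB tumours B-lineage factors held 8 insertions, in Ebf1 and Cbfb, and 3.64% against 0.500%. The receptor signalling list (Malt1), the death receptor list (Fas) and the NF-kB list held 3 each, 1.36% against 0.335%, 0.0802% and 0.195%.

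Within a tumour the recurrent genes were found together in several combinations. Fas and Gna13 were both hit in 10 PB tumours, Fas alone of the pair in 8, Gna13 alone in 3 and neither in 9. All 7 PB tumours with Ebf1 also had Fas, and all 6 with Rel had Fas. Gna13 was hit together with Rel in 4 PB tumours, and in all 3 PB tumours with Malt1, with Cd74 or with Grb2. In SB tumours Ebf1 and Fas were hit together in 3 tumours, 3 of the 4 with Ebf1 and all 3 with Fas, and in 2 without SB tumour 3. These are counts over few tumours chosen after their values were seen, and they were not tested.

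PB tumour 7, a tumour with Fas, Gna13, Ebf1 and Rel, held 7 of the 16 genes plotted by tumour, and PB tumour 6 held 6. 6 PB tumours held none of these 16, which are not all the genes hit. Each SB tumour held at least 1, but in SB tumours 5 and 7 this was only En2, which all 11 SB tails also had. The 16 were the genes hit in at least 3 PB tumours or at least 2 SB tumours. By tissue label, Fas was hit in 8 of 9 MES MASS, 3 of 6 MES LN, 3 of 5 LN and 1 of 6 SPLEEN samples of PB mice. Gna13 was hit in 4 of 9 MES MASS and 5 of 6 MES LN samples. Sample names came in 2 forms, with joined or separated parts. Fas was hit in 12 of 22 PB tumours with joined names and 6 of 8 with separated names, and Gna13 in 9 of 22 and 4 of 8.

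The 20 most covered insertions of PB tumours lay in a gene more often than the other insertions of the same tumours. Their share in gene bodies was 77.7% ± 14 against 63.9% ± 1.91 (SD, n = 30), higher in 26 of 30 tumours, with an adjusted p of 1.00e-04 by a two-sided sign-flip permutation test over tumours, adjusted by Benjamini-Hochberg over 10 tests. In SB tumours the shares were 60.5% ± 14.2 and 54.7% ± 1.24 (SD, n = 11), higher in 8 of 11, with an adjusted p of 0.188 by the same permutation test. In PB tails they were 61.7% and 61.1%. The difference in PB tumours exceeded that in PB tails by 13.2 percentage points, with an adjusted p of 0.0188 by a permutation of the groups, over 6 tests. In SB tails the shares were 58.6% and 51.9%, so the difference there was larger than in SB tumours, by 0.953 points (adjusted permutation p of 0.970). Of the 129 most covered SB tail insertions in genes, 26 lay in En2, and the share without En2 was not worked out. Without PB tumour 30 the difference in PB tumours was 13.96 points, and without SB tumour 3 that in SB tumours was 6.41. Of the PB insertions 430 lay in introns, 108 of them in a first intron, 8 in coding exons, 17 in other exons and 134 between genes. Of the SB insertions 125 lay in introns, 2 in exons and 87 between genes.

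No difference in direction within genes between the most covered and the other insertions passed the permutation test in either system at 20 positions. The share on the strand of the gene was 43.8% ± 13.6 against 48.5% ± 1.33 in PB tumours (SD, adjusted permutation p of 0.103) and 52.6% ± 15.2 against 46.2% ± 1.68 in SB tumours (SD, adjusted permutation p of 0.188). It did pass in PB with shared positions removed (−7.205 points, adjusted permutation p of 0.0138) and in SB with 10 positions (13.78 points, 0.0353). It also passed in PB with every gene hit in at least 4 PB tumours left out, whether reported here or not (−8.979 points, adjusted permutation p of 0.00235). Counted over insertions, 202 of 466 in genes were on the strand of the gene in PB tumours, and 70 against 63 on the opposite strand in SB tumours. In PB the 16 of 19 in Fas, 6 of 6 in Rel and 3 of 3 in Malt1 stood beside 264 of 466 on the opposite strand over all genes. The share within 5 kb of a start site was 20.8% against 24.4% in PB tumours (adjusted permutation p of 0.0831) and 18.2% against 13.5% in SB tumours (adjusted permutation p of 0.177). The GC content of the 100 bases on each side was 38.8% ± 1.51 against 39.7% ± 0.186 in PB tumours, lower in 22 of 30 (SD, adjusted permutation p of 0.0099). This no longer passed with 10 positions (adjusted permutation p of 0.134), with shared positions removed (0.0731) or in the 8 tumours with separated names (0.188). The GC content of SB tumours was 38.1% against 37.3% (adjusted permutation p of 0.188).

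**Figure D4:**
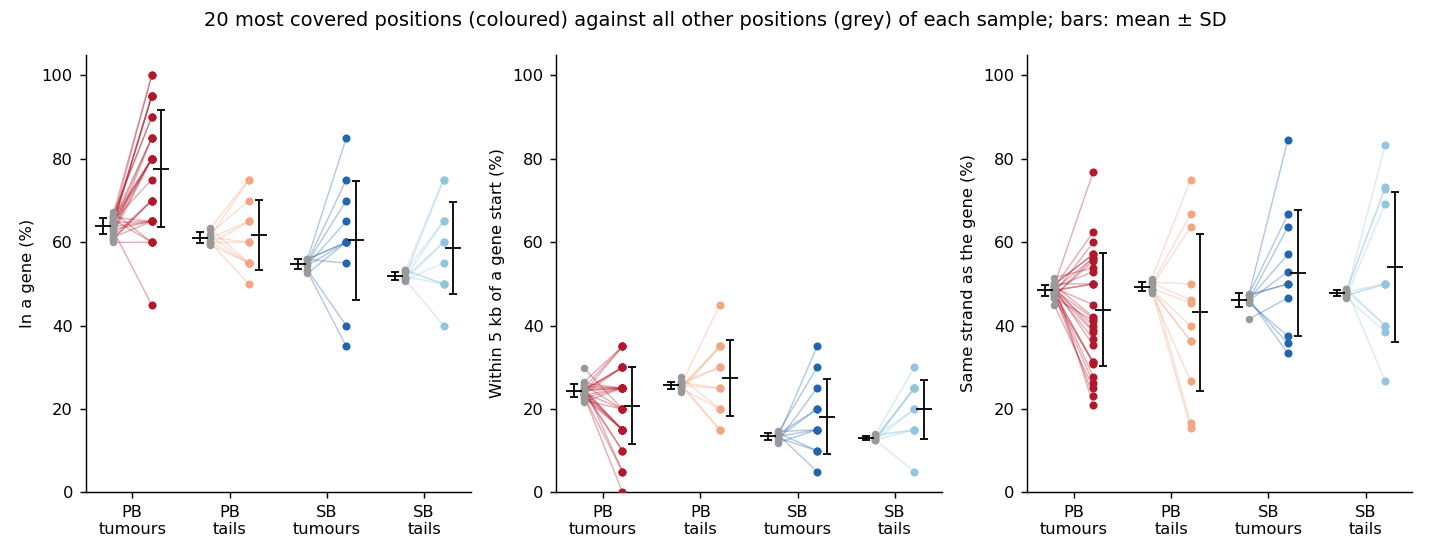
Percent in a gene, within 5 kb of a gene start and on the strand of the gene, for the 20 most covered insertions (coloured) and all others (grey) of each sample, joined by a line, with bars for the mean ± SD of 4 groups. The share in gene bodies averaged 13.8 points higher in PB tumours and 5.75 points higher in SB tumours.

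Positions listed in another sample were more frequent among the most covered insertions. The share was 17.2% ± 14.5 against 4.96% ± 0.652 in PB tumours (SD, n = 30, adjusted permutation p of 1.00e-04) and 21.4% ± 18.9 against 0.948% ± 0.375 in SB tumours (SD, n = 11, adjusted permutation p of 0.00313). The raw p in PB, 1.00e-05, is the smallest these permutations can give. The same held in SB tails, with 23.6% against 0.702%, whereas PB tails had 6.67% against 5.09%. Copies in another sample could hold a very small fraction of the reads, with a median of 0.000658 in PB tail 9 for PB tumour 30. Whether such a copy is listed can depend on the reads that the rule chose by. These tests of shared positions are therefore not independent of the rule. In Fas 17 of 51 less covered PB insertions (33.3%) lay within 3 bases of a most covered insertion of another tumour, and in Rel 10 of 32. The counts were 7 of 55 in Gna13, 2 of 36 in Malt1 and 3 of 214 in Ebf1, and 149 of 157546 (0.0946%) over all insertions of PB tumours. These genes were named for their most covered insertions, so the share over all insertions is no fair baseline for them. PB tumour 8, whose 20 did not include Fas, held 10 insertions in Fas. Of these, 6 lay within 3 bases of a most covered insertion of another tumour, with 571, 336, 321, 164, 73 and 53 reads. The 3 insertions in Fas in SB tails had 2, 15 and 47 reads and all lay at positions of SB tumours, where the reads were 5140, 6784 and 3793. Without PB tumour 30 the PB difference in shared positions was 10.2 points, and without SB tumour 3 the SB difference was 19.1.

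Less covered insertions, which the rule did not choose, were counted per gene and compared between tumours and tails with edgeR's quasi-likelihood test, over all genes with at least 10 insertions. In PB, 3548 genes were tested, of which 2.14% were called higher and 2.37% lower in tumours at an adjusted p below 0.05. That is 76 higher and 84 lower, a balance that turned to 136 higher and 52 lower with TMM scaling. In SB, 1163 genes were tested, of which 0.602% were called higher and 0.172% lower. Of the 359 genes with a most covered PB insertion, 266 were tested, and 19 were called higher (7.14%) and 6 lower. Their median log2 fold change of tumours over tails was 0.50, against 0.20 over all genes tested. Of the 110 SB genes 58 were tested, and 5 were called higher (8.62%) and none lower, with a median log2 fold change of 0.52 against 0.00. Of the 5, En2 and Cbfb rested on the tails' own insertions being left out and on SB tumour 3, as given below. Genes with too few insertions could not be tested, and a gene can pass that filter through its tumour insertions alone. Of the genes whose test values are given below, only Ebf1, Cadm2 and Zbtb20 in PB had at least 10 insertions in tails. The genes with a most covered insertion were also chosen through tumours alone, which favours genes with many tumour insertions. Their shares called and their medians are therefore descriptions and no independent test. Calls over all genes were 128 in PB without PB tumour 30 and PB tail 9, against 160, and 12 in SB without SB tumour 3, against 9.

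Gna13 had 55 less covered insertions in 23 of 30 PB tumours and 2 in 2 of 12 tails, or 0.318 ± 0.265 against 0.0306 ± 0.0743 per 1000 insertions (SD). This was higher in tumours by a log2 fold change of 2.47 (SE 0.65, edgeR adjusted p of 0.00837). Fas had 51 in 21 PB tumours and 3 in 2 tails, with a log2 fold change of 1.99 (SE 0.61, edgeR adjusted p of 0.0337). Ebf1 had 214 in 25 PB tumours and 21 in 11 tails, with a log2 fold change of 1.45 (SE 0.34, edgeR adjusted p of 0.00232). Cd74 had 20 in 9 tumours and none in tails, and so passed the filter through tumours alone, as Gna13 and Fas did. Rel had 32 in 11 tumours and 3 in 3 tails and did not pass the test (log2 fold change 1.37, edgeR adjusted p of 0.182), and Malt1 had 36 and 6 (0.78, edgeR adjusted p of 0.482). Cadm2 was lower in PB tumours, with 35 insertions in 20 tumours and 27 in 10 tails (log2 fold change −1.27, SE 0.41, edgeR adjusted p of 0.0444).

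In SB tumours Ebf1 had 52 less covered insertions in 8 of 11 tumours and 9 in 5 of 11 tails, with a log2 fold change of 2.50 (SE 0.51, edgeR adjusted p of 1.82e-04). 23 of the 52 were in SB tumour 2. Traf3 had 30 in 8 tumours and 4 in 4 tails (log2 fold change 2.70, SE 0.60, edgeR adjusted p of 0.00116), with 12 of the 30 in SB tumour 11. Like the other SB genes given here, both passed the filter only with their tumour insertions. Fas had 20 in 4 tumours and 3 in 3 tails and did not pass (2.30, edgeR adjusted p of 0.0612), with 17 of the 20 in SB tumour 11. Without SB tumour 3 its edgeR adjusted p was 0.0383. Cbfb had 28 and 2 (3.29, edgeR adjusted p of 1.75e-04), but 20 were in SB tumour 3, and without it 8 and 2 gave 1.74 (edgeR adjusted p of 0.365). En2 had 30 and 3 (3.06, edgeR adjusted p of 1.82e-04), a difference set by leaving out the tails' own most covered insertions, since with those kept 34 and 29 gave 0.48 (edgeR adjusted p of 0.799).

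Larp1, which binds the mRNAs of ribosomal proteins, had 18 less covered insertions in 11 PB tumours and none in tails, and likewise passed the filter through tumours alone. Ambra1, a scaffold of autophagy, had 41 in 20 tumours and 2 in 2 tails (log2 fold change 2.08, SE 0.66, edgeR adjusted p of 0.0413), and the adjusted p was 0.0801 without PB tumour 30 and PB tail 9. Ambra1 passed the filter in the same way.

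Ptprc, which encodes CD45, the phosphatase that sets the threshold of B-cell receptor signalling, showed another pattern. Its less covered insertions numbered 195 in 28 PB tumours and 1 in 1 tail (log2 fold change 4.79, SE 0.57, edgeR adjusted p of 1.05e-13), and 61 in all 11 SB tumours and 4 in 4 tails (3.73, SE 0.56, edgeR adjusted p of 2.51e-08). In both systems Ptprc passed the filter through tumours alone. Yet it was among the 20 most covered in only 2 PB tumours, PB tumour 3 with 97691 reads at rank 5 and PB tumour 22 with 2980 reads at rank 12, both on its strand in intron 1, and in no SB tumour. The best rank of Ptprc within a tumour had a median of 245.5 in PB and 494 in SB. For Fas the medians were 11 and 1, for Gna13 13 in PB, for Rel 47 in PB, for Ebf1 45 and 111.5, and for Malt1 540 and 32. The median reads per insertion were 7 in Ptprc and 32.5 in Fas in PB tumours, with the most covered insertions included and tumours of unequal depth pooled. Fas, Gna13, Rel, Ebf1 and Malt1 were named because they held most covered insertions. These ranks and reads are therefore not independent of that choice and were not tested. Zbtb20, Mef2c and Tox had 217, 184 and 180 less covered insertions in PB tumours and were among the 20 most covered in 2, 1 and 2 tumours. Lpp had 148 and was among them in none. Mef2c and Tox were called higher in tumours. Zbtb20 was not called, with 49 in 10 tails (log2 fold change 0.43, edgeR adjusted p of 0.431). Zbtb20 and Lpp span 758704 and 599229 bases, against 112898 for Ptprc.

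**Figure D5:**
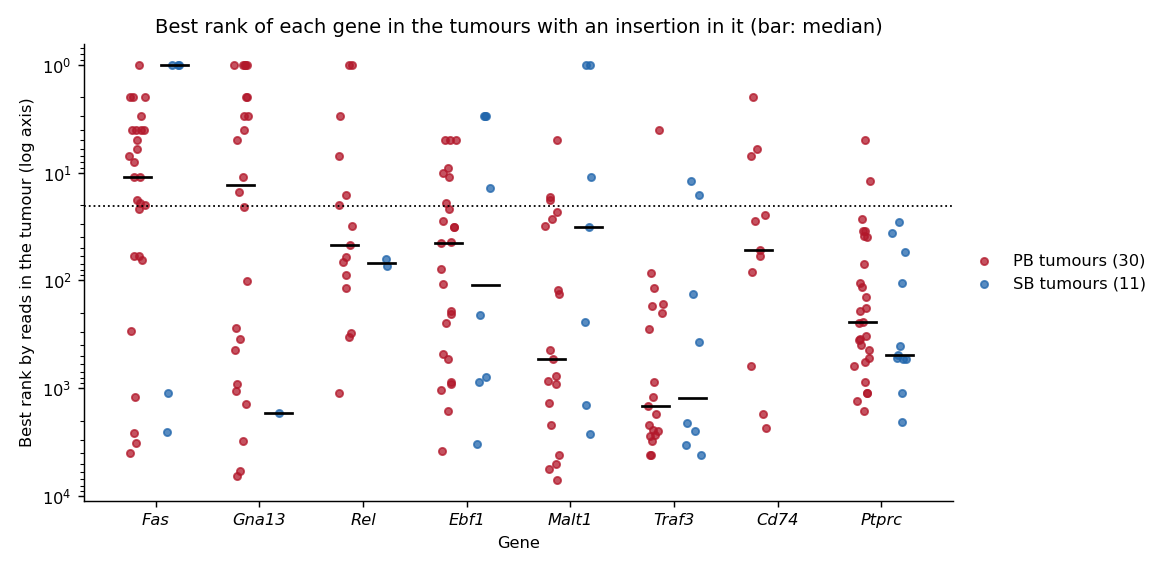
Best rank (log axis, 1 at the top) of each gene's insertions in every tumour that had one, for 8 genes in PB (red) and SB (blue) tumours, with bars for medians and a dotted line after rank 20. Fas reached the first 20 ranks in 18 of 27 PB tumours that had it and Ptprc in 2 of 28.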

How the data were processed

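Transposon ends had been amplified by splinkerette PCR, separately for the 5′ and 3′ ends, and sequenced as paired reads. The authors deposited 1 table of 385883 lines with raw read counts per insertion (the smallest being 2) on mm10. The aligner and the caller are not given in the sources used here. 1 other per-sample column was not used. Counts of a sample and position were summed. Chromosome 14 and the sex chromosomes were left out. An insertion was given to the RefSeq gene (GRCm38.p6) whose span held it, coding genes first and then the longest. 1 gene is not reported here. The members, gene lists and tests were chosen with earlier results of these data known. Named genes were those hit in at least 4 PB or 2 SB tumours, those with at least 3 insertions of 1 tumour, the gene of a tumour's most covered insertion where another tumour also hit it, and list genes that were hit. Cd74, Rabgap1l, Cadm2, Ambra1, Slamf6, Zbtb20 and Lpp were chosen after their values were seen. Samples were grouped by genotype and tissue label. Each was taken to be 1 mouse, a reading of the sample names that was not checked.

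Measures of position were compared within tumours by two-sided sign-flip permutation and between groups by two-group permutation (100000 resamples each), with Benjamini-Hochberg adjustment. Insertions per gene were tested with edgeR 4.0.16 in R 4.3.3, with DESeq2 1.42.0 as an alternative. Other steps used Python 3.11.15, numpy 2.4.6 and pandas 2.3.3. The procedures were tested on simulated data. PCR and depth affect read counts, so ranks rather than counts were compared between samples. Other numbers of positions, gene rules, normalizations and sample sets were tried.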

Additional observations from a re-analysis of the deposited data

Results flagged for a closer look

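3 differences between groups passed a two-group permutation test. The excess of the 20 most covered insertions over the others in gene body share was larger in PB tumours (13.8 points) than in PB tails (0.612 points), by 13.2 percentage points (13.17, adjusted permutation p of 0.0188, over 6 tests). The difference in the share within 5 kb of a start site was lower in PB than in SB tumours (−8.258 points, adjusted permutation p of 0.0386, over 3 tests), being below 0 in PB and above 0 in SB. The difference in the share on the strand of the gene was also lower in PB than in SB tumours (−11.08 points, adjusted permutation p of 0.0386). The same differences were −6.18 in PB tails and 6.14 in SB tails, beside −4.67 in PB tumours and 6.42 in SB tumours. Of the 129 most covered SB tail insertions in genes, 26 lay in En2, 21 of them on its strand. The SB tail value without En2 was not worked out. All SB tumours had joined names. Among tumours with joined names the start site difference was −7.042 points (adjusted permutation p of 0.0545) and the strand difference −12.71 points (adjusted permutation p of 0.0218).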

How the results depend on the processing

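No paired analysis was possible because the sample names match no tumour to a tail and the labels state no shared replicate numbers. The number after IMPB or IMSB in the names is not explained and was not used. Of the alternative values, 112 kept direction and side of the threshold or, for counts, stayed within 1.5 times, though SB gene body share fell to 1.215 with shared positions removed. For the start site share in PB, the difference passed the threshold with 50 positions (−3.106), with chromosome 14 kept (−4.421), without the tumour with most reads (−3.992) and without PB tumour 30 (−4.04). In SB it passed with 50 positions (4.712) and turned with shared positions removed (−0.2651). For the same strand share in PB it passed with 50 positions (−4.099), shared positions removed (−7.205) and coding genes only (−6.153). It also passed with every gene hit in at least 4 PB tumours left out, whether reported here or not (−8.979). In SB it passed with 10 positions (13.78) and turned with shared positions removed (−0.09157). GC content in PB no longer passed with 10 positions (−0.586), shared positions removed (−0.6033) or separated names only (−0.9486), nor did the shared position share with separated names (15.12). With 50 positions, the SB tumour and tail differences turned for gene body (0.3237), start site (2.176) and strand (−1.598), and that for strand in PB tumours and tails turned with 10 (−1.404) and 50 positions (−3.963). PB against SB no longer passed for start site with joined names only (−7.042) or for strand with 50 positions (−5.171). Genes in at least 4 PB tumours became 12 with 50 positions, and Rabgap1l or Pus10 replaced Rel with shared positions removed or genes extended. Genes in at least 2 SB tumours became 4, 15 and 5 with 10 positions, 50 positions and shared positions removed. By edgeR, PB calls were 160 (76 higher, 84 lower), 67 without the filter, 0 for presence or absence (322 at an unadjusted p under 0.05), 97 with the name form as a block, 76 by DESeq2 and 188 with TMM (136 higher, 52 lower), which moved the median log2 fold change of all genes from 0.20 to 0.40. SB calls were 9, 0 for presence or absence (27 unadjusted) and 3 by DESeq2. The cause was not tested. The last ranks of SB tumour 9 and PB tumour 13 had under 50 reads.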

Other observations

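Chromosome 14 was left out by the rule. With it kept, the mean number of the 20 most covered positions that lay on it was 2.97 in PB tumours, 10 in PB tails, 5.36 in SB tumours and 12.6 in SB tails. In PB tumour 10 an insertion pair in Slamf6, a receptor of lymphocytes, lay 3 bases apart on the strand of the gene with 485 reads each, and SB tumour 11 held another in the same intron with 501 reads.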
